A study of Mus musculus with 16 samples.

Results

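The stretch of mouse chromosome 12 from 20 to 32 Mb (mm10, the same assembly as GRCm38) was described gene by gene in the periaqueductal gray, a midbrain region of the descending pain control pathway. Its members were all genes of the count files that start in the stretch and reached at least 10 counts in 4 or more of the 16 libraries, leaving out symbols that start with Rpl, Rps or Kcn. Of 90 annotated genes that start there, 31 did not reach the count minimum and 1 (Rps7) was left out by its symbol, so 58 of the 38924 genes in the files were members. All 58 were among the 18111 genes tested. The stretch was chosen with the difference between knockout and wild-type libraries in view, so that difference is given here as a description, without p-values. The comparison of morphine against naive libraries was not the one used for the choice, and it is tested. It uses the same libraries, however, so it is not independent of the choice.

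The study measured polyA RNA in brain tissue of male mice and asked how the protein RGSz1, encoded by Rgs20, and the opioid morphine act on gene expression there. The groups were wild-type naive, wild-type morphine, RGSz1 knockout naive and RGSz1 knockout morphine, with 4 libraries each, and each library pooled punches of 2 animals. The labels give neither the age nor the strain of the mice, nor the dose or duration of morphine, and no group was labelled as given vehicle. The deposited counts totalled 19.1 to 55.0 M (mega counts) over genes per library, and levels are given in CPM, which are counts scaled by TMM to 1 mega count of library size. Rgs20 itself, on chromosome 1 at 4909576 to 5070285, lay between 11.4 and 14.4 CPM in all 16 libraries, with a log2 fold change of -0.06 ± 0.05 (SE) between the genotype labels. Its gene-level counts therefore do not check the labels and do not show which exons were read, and the groups are called libraries labelled knockout. Markers of meningeal fibroblasts were high in wild-type naive 2 and knockout morphine 3, with marker scores (mean log2 level of the markers, centred over the libraries) of 2.17 and 1.72 against at most 0.57 in the other libraries.

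Genes that lie near each other on a chromosome are inherited together, and a laboratory strain that carries an engineered allele can also carry sequence variants of its parent strains elsewhere in the genome. Such variants can alter the level of a nearby transcript, or only the number of its reads that align to a reference of another strain. Gene counts hold no sequence, so neither the strain at these loci nor the alignment of reads to them was tested. The members themselves are mixed: 44 are protein coding, and 14 are pseudogenes, long noncoding RNAs or other noncoding transcripts.

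The promoter windows of 4 members are shown because the members concerned carry the results below. Acp1 shares most of its promoter with an uncalled neighbour, and Id2 and Adam17 differed with genotype. Mboat2 differed with morphine in wild-type libraries and with genotype in morphine libraries. Each runs from 250 bases before to 50 bases after the transcript start in RefSeq annotation of GRCm38.p6, written 5′ to 3′ on the gene's strand. In Acp1 the capitals mark the 156 bases that also lie in the promoter window of Sh3yl1, which is read from the other strand. In the other windows the capitals mark the GC box (GGGCGG) and the CCAAT box (CCAAT) on either strand.
Acp1, chr12:30911563-30911862, minus strand: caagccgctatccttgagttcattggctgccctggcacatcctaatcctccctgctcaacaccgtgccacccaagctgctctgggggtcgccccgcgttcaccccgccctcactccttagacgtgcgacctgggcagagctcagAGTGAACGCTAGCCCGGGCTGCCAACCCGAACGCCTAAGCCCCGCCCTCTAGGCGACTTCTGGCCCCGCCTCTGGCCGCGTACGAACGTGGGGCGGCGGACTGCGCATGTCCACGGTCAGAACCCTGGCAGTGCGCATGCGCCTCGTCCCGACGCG
Id2, chr12:25096043-25096342, minus strand: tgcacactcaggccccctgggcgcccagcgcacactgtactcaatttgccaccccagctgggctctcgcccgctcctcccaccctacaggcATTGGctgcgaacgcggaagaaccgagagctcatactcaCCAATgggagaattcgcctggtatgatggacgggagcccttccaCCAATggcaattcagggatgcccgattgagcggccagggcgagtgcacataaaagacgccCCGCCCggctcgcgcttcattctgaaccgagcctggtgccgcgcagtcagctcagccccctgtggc
Adam17, chr12:21373583-21373882, minus strand: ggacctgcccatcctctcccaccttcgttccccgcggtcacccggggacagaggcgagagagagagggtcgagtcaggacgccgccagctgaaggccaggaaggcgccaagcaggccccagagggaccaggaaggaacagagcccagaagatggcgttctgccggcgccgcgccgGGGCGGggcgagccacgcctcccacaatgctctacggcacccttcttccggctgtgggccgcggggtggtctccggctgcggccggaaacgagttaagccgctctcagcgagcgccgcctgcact
Mboat2, chr12:24831349-24831648, plus strand: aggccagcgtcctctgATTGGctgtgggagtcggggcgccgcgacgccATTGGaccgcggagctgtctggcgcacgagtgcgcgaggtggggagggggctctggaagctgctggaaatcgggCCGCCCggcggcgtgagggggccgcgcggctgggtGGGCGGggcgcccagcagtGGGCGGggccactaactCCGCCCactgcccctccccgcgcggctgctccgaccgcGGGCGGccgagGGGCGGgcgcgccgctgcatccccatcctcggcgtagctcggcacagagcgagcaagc

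RefSeq promoter windows matched 41 of the 58 members by symbol, with 48 windows in all because some genes have more than 1 start. The GC box, searched on both strands like every motif here, was in 60.4% of these windows and in 35.7% of the 32851 windows of all genes. The CCAAT box was in 45.8% of the members' windows and 37.4% of all, and the TATA box (TATAAA) in 6.25% and 13.6%. The E box (CACGTG) was in 6.25% of the members' windows and 7.15% of all. The cAMP element (TGACGTCA) was in 0 of the 48 windows, against 1.79% of all. The members had reached a count minimum in this tissue, whereas the windows of all genes were not limited in this way. The median number of CG pairs of letters per window was 20.5 for the members and 7.0 for all genes. The motif shares are therefore not compared at like composition. These counts describe letters in the windows and do not show binding.

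Between libraries labelled knockout and wild type, averaged over naive and morphine libraries, 12 of the 58 members passed edgeR's threshold (Benjamini-Hochberg adjusted p under 0.05 over all genes tested), 7 higher and 5 lower. Over all genes 1.53% passed, 0.685% higher and 0.845% lower. The members that passed higher were Gm10478, Zfp125, Acp1, 3110053B16Rik, Gm9866, Id2 and Kidins220, and those that passed lower were Gm6969, Gm20472, Adi1, Iah1 and Adam17. In naive libraries 6 members passed (0.906% of all genes) and in morphine libraries 5 (0.530%). Those 5 include Mboat2 (-0.19 ± 0.04), which did not pass in the average. As the stretch was chosen on this difference, nothing is read from these shares. Leaving out 1 library at a time gave 8 to 12 members in the average. The naive count fell to 3 when wild-type naive 2 or 3, or knockout naive 2, 3 or 4, was left out. The morphine count fell to 3 on leaving out wild-type morphine 2 or 4, or knockout morphine 2, and to 2 on leaving out knockout morphine 4.

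The members that passed did not form an unbroken run along the stretch, and the cause of this layout was not tested. At this threshold the 12 members were scattered among 46 that did not pass. Between neighbours that passed lay up to 8 of those in a row and gaps of up to 2.22 Mb. No member at higher coordinates than Acp1 passed. At an unadjusted p under 0.05 there were 27 members, or 46.6%, against 10.5% of all genes, so the layout depends on the threshold. The directions were mixed, and the median log2 fold change over all members was 0.006. The median size of the averaged difference, regardless of sign, was 0.127 for the members and 0.044 for all genes tested. Level and spread differed less, with a median of 10.2 CPM and a median biological coefficient of variation of 0.0828 for the members against 15.7 CPM and 0.0746 for all genes. Of the 58 members, 40 had the same sign in naive and in morphine libraries, among them all 12 that passed in the average. Passing in the average of both treatments largely fixes such agreement for those 12. The share over all genes was not counted, so nothing is read from the 40.

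**Figure D1:**
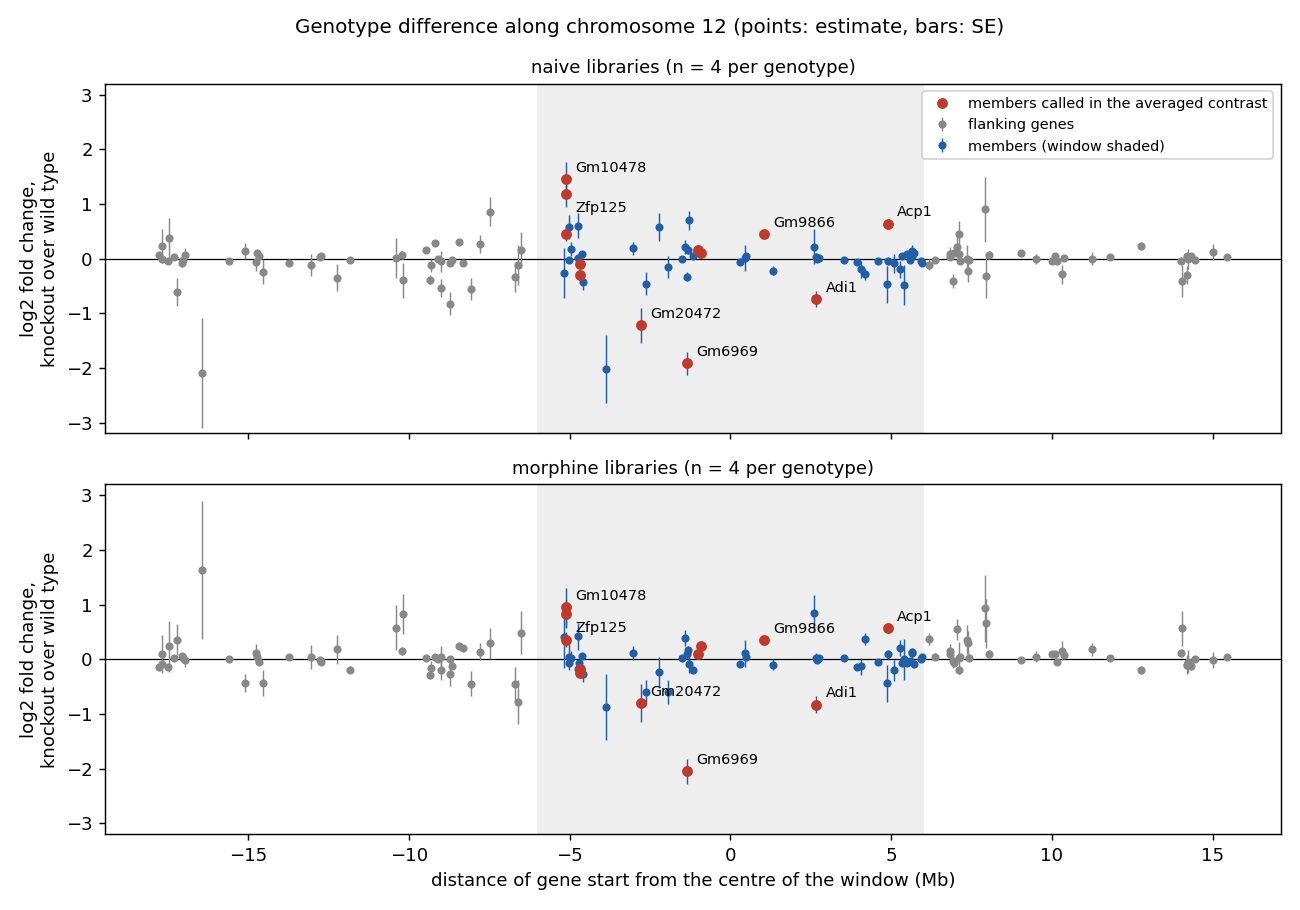
Log2 fold change of knockout over wild-type libraries (vertical axis, bars are SE) against the distance of each gene's start from the centre of the stretch in Mb, for naive libraries (top) and morphine libraries (bottom). Blue points are members, red points the 12 members that passed in the average over treatments, and grey points genes of the flanks. The red points lie above and below 0 among blue points. Many blue points lie near 0, but some do not, such as Gm4425 (-2.02) and Rrm2 (0.70) in naive libraries.

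Adi1 and Acp1 were the protein-coding members with the largest averaged differences. Adi1 (chromosome 12, 28675231 to 28682175, plus strand) encodes acireductone dioxygenase, an enzyme of the methionine salvage pathway that recycles methionine from the by-product of polyamine synthesis. Its level was 61.3, 55.8, 59.7 and 64.6 CPM in wild-type naive libraries 1 to 4 and 44.5, 34.1, 31.5 and 33.5 CPM in knockout naive libraries 1 to 4. In morphine libraries 1 to 4 it was 56.4, 79.6, 63.8 and 80.2 CPM for wild type and 44, 29.3, 41.9 and 41.6 CPM for knockout. Every library labelled knockout lay below every wild-type library of the same treatment. The averaged log2 fold change was -0.78 ± 0.10 (SE), which puts the knockout level at 58.1% of the wild-type level, with -0.74 ± 0.14 in naive and -0.83 ± 0.15 in morphine libraries.

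Acp1 (30893326 to 30911589, minus strand) encodes the low molecular weight protein tyrosine phosphatase. It was measured at 22.4, 20.5, 21.7 and 22.6 CPM in wild-type naive libraries 1 to 4 and at 31.0, 35.8, 32.1 and 37.1 CPM in the knockout naive libraries. In morphine libraries 1 to 4 it was 26.3, 19.5, 22.4 and 17.9 CPM for wild type and 32.4, 32.8, 31.4 and 31.5 CPM for knockout. The genotypes did not overlap in either treatment, and the averaged difference was 0.61 ± 0.06, a 1.52-fold higher level in libraries labelled knockout. Sh3yl1, a gene for a phosphoinositide-binding protein whose start lies 78 bases from that of Acp1 on the other strand, had a difference of 0.02 ± 0.05 with a 95% interval of -0.09 to 0.13. Its levels ran from 8.68 to 9.75 CPM in wild-type morphine and from 9.38 to 10.6 CPM in knockout morphine libraries, so the pair with 156 shared promoter bases held 1 member with a difference and 1 without a detectable one. Alkal2, which overlaps the far end of Acp1 by 529 bases on the opposite strand, was low, with group means from 0.294 to 0.564 CPM and a difference of -0.46 ± 0.24.

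The neighbours of Adi1 showed the same contrast over short distances. Trappc12, a subunit of a vesicle tethering complex, had means of 87.5 ± 1.67 CPM in wild-type naive and 87.8 ± 1.35 CPM in knockout naive libraries (SD, n = 4). Its averaged difference was -0.00 ± 0.02, with a 95% interval of -0.05 to 0.05. Rnaseh1, which encodes a nuclease that removes RNA from RNA and DNA hybrids, had 0.03 ± 0.06, and Colec11, a secreted lectin of low level here, had 0.53 ± 0.23 without passing. Over all 58 members, 37 had a 95% interval of the averaged difference inside 0.5 log2 units on either side of 0. They include Adam17, Iah1, Kidins220 and Id2, which passed, so such an interval bounds the size of a difference and does not show its absence. The share over all genes was not counted.

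Noncoding members made up 6 of the 12 that passed, which is 6 of 14 noncoding members against 6 of 44 protein-coding ones. Over all genes the shares were 2.29% of genes that are not protein coding and 1.39% of protein-coding genes. Gm6969, a processed pseudogene at 24638669 to 24639010 on the minus strand, had the largest difference. It lay at 6.72, 4.58, 5.02 and 6.76 CPM in wild-type naive and at 1.57, 1.57, 1.19 and 1.67 CPM in knockout naive libraries. In morphine libraries 1 to 4 it lay at 7.49, 7.15, 4.83 and 3.41 CPM for wild type and at 1.20, 1.37, 1.51 and 1.42 CPM for knockout. The genotypes were apart in both treatments, and the averaged fold change of -1.98 ± 0.16 corresponds to 25.3% of the wild-type level. A processed pseudogene is a copy of a spliced messenger RNA, so its reads can be divided with the parent gene, and its count is uncertain for that reason.

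At the start of the stretch 3 members that passed overlap on the minus strand and cannot be counted as separate loci. Zfp125 and 3110053B16Rik, both annotated as transcribed pseudogenes, share 44179 bases, and Gm10478 lies inside both. Zfp125 lay at 1.46, 1.59, 1.18 and 1.97 CPM in wild-type naive and 2.92, 4.31, 3.49 and 3.4 CPM in knockout naive libraries, which do not overlap. In morphine libraries it lay at 2.40, 0.889, 1.80 and 1.11 CPM for wild type and 2.69, 3.33, 1.91 and 3.14 CPM for knockout, where wild-type morphine 1 lay above knockout morphine 3. The averaged differences were 1.01 ± 0.18 for Zfp125, 1.20 ± 0.24 for Gm10478 and 0.41 ± 0.09 for 3110053B16Rik. Gm10478 is low, with group means from 0.263 to 0.795 CPM.

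The other 2 noncoding members that passed were a pseudogene near the detection limit and a long noncoding RNA. Gm20472, an unprocessed pseudogene with a mean of 16.7 counts per library, had means of 0.600 ± 0.116 CPM in wild-type naive and 0.258 ± 0.0908 CPM in knockout naive libraries and an averaged difference of -1.01 ± 0.23. Gm9866, a long noncoding RNA gene, lay at 26.7 to 28.3 CPM in wild-type naive and 34.3 to 41.2 CPM in knockout naive libraries. In morphine libraries its ranges were 23.5 to 30.8 CPM for wild type and 30.2 to 36.5 CPM for knockout, which overlap through wild-type morphine 1. Its averaged difference was 0.40 ± 0.06. Gm4425, another long noncoding RNA gene, had -1.45 ± 0.43 but did not pass, with a mean of 11.0 counts per library.

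The remaining protein-coding members that passed differed by less. Adam17, the membrane protease that releases tumour necrosis factor and growth factors from cell surfaces, lay at 28.9 to 30.0 CPM in wild-type naive and 25.4 to 28.5 CPM in knockout naive libraries. In morphine libraries its ranges were 28.0 to 31.0 CPM for wild type and 24.0 to 26 CPM for knockout. The genotypes were apart in both treatments, with an averaged difference of -0.18 ± 0.03. Iah1, which encodes an esterase, overlaps Adam17 by 311 bases on the opposite strand and had -0.24 ± 0.06. The library kit does not mark the strand, so reads in overlaps of opposite strands cannot be told apart.

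Kidins220, a membrane scaffold of neurotrophin receptor signalling, was the most abundant member by counts. It had 510.0 ± 9.55 CPM in wild-type naive and 570.0 ± 17.2 CPM in knockout naive libraries, and 519 ± 17.9 and 558 ± 32.4 CPM in the matching morphine libraries (SD, n = 4). The averaged difference of 0.13 ± 0.03 is a 1.10-fold higher level. Id2, an inhibitor of basic helix-loop-helix transcription factors, had 0.17 ± 0.04. In naive libraries knockout 1 (41.7 CPM) lay below all wild-type libraries (43.0 to 46.0 CPM), whereas in morphine libraries knockout (43.1 to 50.3 CPM) lay above wild type (38.9 to 41.4 CPM). In bulk tissue, a change in the number of cells that express a gene cannot be told apart from a change of RNA per cell.

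**Figure D2:**
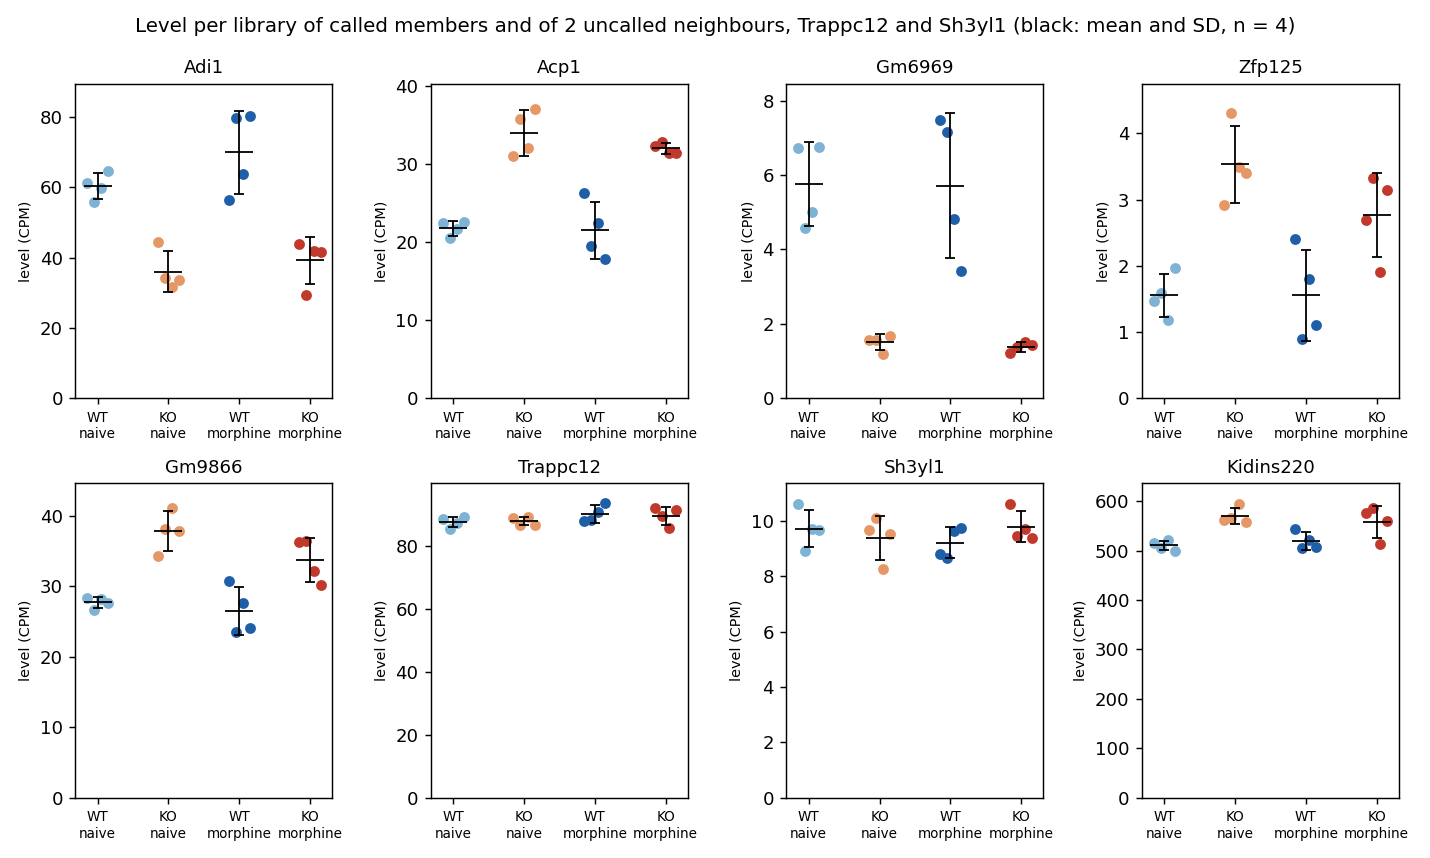
Level in CPM of 8 members in every library, by genotype and treatment, with the mean and SD of 4 libraries in black and a vertical axis that starts at 0. Adi1 and Gm6969 lie lower and Acp1 higher in knockout libraries of both treatments. Trappc12, next to Adi1, and Sh3yl1, next to Acp1, lie at like levels in the 4 groups.

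Calls of 4 members were lost when single libraries were left out, and also under other settings. By limma-voom 10 of the 12 passed, without Id2 and Gm20472. Id2 also did not pass with the serotonin score as covariate or with a filter of at least 1 CPM in 8 libraries, which gave 9 members. Iah1 did not pass without a filter on low counts or with a replicate block, each of which gave 11. The call of Id2 was lost when any 1 library other than the first of the knockout naive and the first of the knockout morphine libraries was dropped, with values from 0.15 to 0.22 over the settings. For 3110053B16Rik, with values from 0.33 to 0.47, the call ended on dropping 1, 2 or 3 of the wild-type naive libraries, 1 or 4 of wild-type morphine, 1, 2 or 3 of knockout naive, or 2 or 3 of knockout morphine. For Iah1, with values from -0.27 to -0.21, it ended on dropping 1, 2 or 3 of wild-type naive, 2, 3 or 4 of wild-type morphine, 2, 3 or 4 of knockout naive, or 1 or 2 of knockout morphine. For Gm20472, with values from -1.15 to -0.91, these were 3 or 4 of wild-type naive, 3 or 4 of wild-type morphine, 2 or 4 of knockout naive, and 2 or 3 of knockout morphine. The calls of the other 8 members in the average were made without each library in turn.

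In 4 members the genotypes did not overlap in either treatment, namely Adam17, Gm6969 and Adi1, which were lower, and Acp1, which was higher. Over all genes 0.795% were apart in both treatments, 0.353% higher and 0.442% lower. In naive libraries 21 members were apart (8.13% of all genes) and in morphine libraries 10 (5.27%). These counts come from the difference that chose the stretch and are a description.

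Next to the stretch, genes that passed in the averaged difference lay on the side of lower coordinates. From 16 to 20 Mb 3 of 19 genes tested passed. They were Odc1 (0.28 ± 0.04), the rate-limiting enzyme of polyamine synthesis, E2f6 (0.16 ± 0.04), a repressor of the E2F family, and Ntsr2 (-0.34 ± 0.06), a neurotensin receptor. From 0 to 16 Mb edgeR passed 0 of 57 genes (6 at an unadjusted p under 0.05, 1 by DESeq2 and 0 by limma-voom), and from 32 to 96 Mb it passed 0 of 312 (22 unadjusted, 3 by DESeq2 and 0 by limma-voom). From 96 to 104 Mb 7 of 55 passed, and after 104 Mb 1 of 139. On chromosome 12 outside the stretch 11 of 582 genes passed, or 1.89%, against 20.7% of the members, a difference that the choice of the stretch fixes in part.

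The limits of the stretch do not fall on a step in the values. The 3 members nearest its lower end had averaged differences of 0.07 ± 0.36 (1700030C10Rik), 0.41 ± 0.09 (3110053B16Rik) and 1.01 ± 0.18 (Zfp125), and the 3 genes just below it -0.39 ± 0.21 (Gm10479), -0.45 ± 0.28 (Gm5784) and 0.32 ± 0.25 (Gm6802). At the upper end Gpr22, Hbp1 and Prkar2b had 0.01 ± 0.04, -0.01 ± 0.03 and -0.03 ± 0.03, and beyond it Pik3cg, Ccdc71l and Nampt had 0.13 ± 0.08, 0.01 ± 0.04 and 0.06 ± 0.03. By the count minimum, Slc26a4 was just left out with 3 libraries of at least 10 counts, and 1700030C10Rik was just kept with 6.

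**Figure D3:**
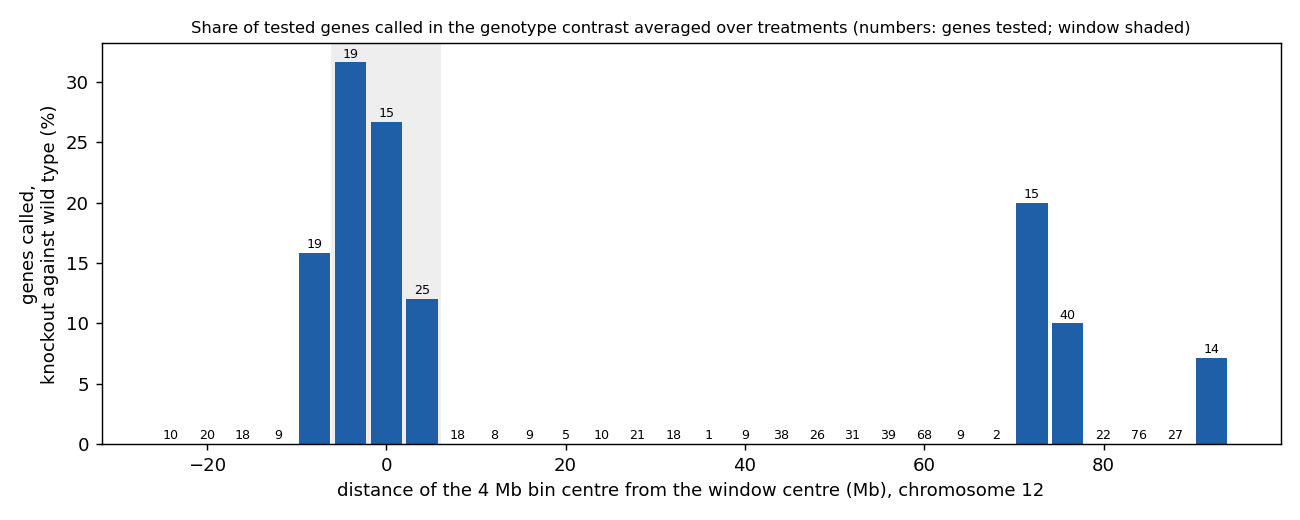
Share of tested genes that passed in the averaged genotype difference (vertical axis, percent) in 4 Mb bins of chromosome 12, against the distance of the bin's centre from the centre of the stretch in Mb, with the number of genes tested above each bar. The bins from 16 to 32 Mb hold bars of 12.0 to 31.6%, no bar stands in the bins from 32 to 96 Mb, and bars of 20 and 10% stand from 96 to 104 Mb.

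For each of the 12 members, every library was placed on a scale where 0 is the wild-type mean and 1 the knockout mean of its treatment. This view is a description, picked once the values were known. Knockout naive 1 lay nearest the wild type among the knockout naive libraries in 8 of 12 members, and in 21.9% of the 265 other genes that passed in the average. Its median position was 0.73 over the members and 1.03 over the other genes. Wild-type morphine 1 likewise lay nearest the knockout in 8 of 12 members and in 19.2% of the other genes, with median positions of 0.44 and -0.08. Knockout morphine 3 lay nearest the wild type in 6 of 12 members and 21.9% of the other genes, and wild-type naive 4 nearest the knockout in 5 of 12 and 23.4%. In the other 12 libraries this held in 0 to 4 of 12 members. The members share a chromosome, and 3 of them overlap, so they are not 12 separate observations of a library. Without both libraries 12 members passed in the average, 11 of which had also passed with them. Without wild-type naive 2 and knockout morphine 3, the libraries with high meningeal markers, 10 passed, all among the 12.

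**Figure D4:**
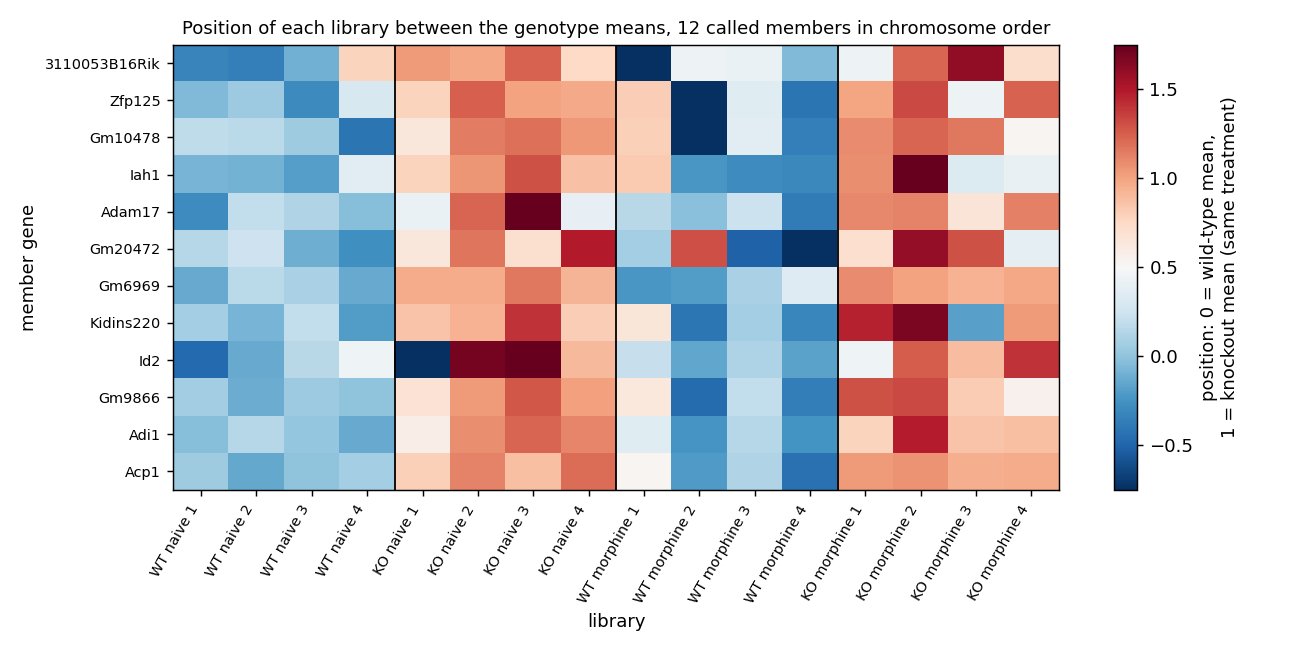
Position of each of the 16 libraries (columns) between the genotype means of its treatment for the 12 members that passed (rows, in chromosome order), where 0 is the wild-type mean and 1 the knockout mean, with colours limited to the ends of the scale. The columns of knockout naive 1 and wild-type morphine 1 are paler than those of their groups in most rows.

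No single marker of another cell type passed in the genotype comparisons. Of 38 tested markers of neurons, astrocytes, oligodendrocytes, microglia, endothelial cells, serotonin neurons, meningeal fibroblasts, forebrain neurons and cerebellar granule cells, edgeR passed 0 in the average (0 at an unadjusted p under 0.05, 0 by DESeq2 and 0 by limma-voom). In naive libraries it also passed 0 (2 unadjusted) and in morphine libraries 0 (4 unadjusted), with 0 by DESeq2 and limma-voom in both. The summed oligodendrocyte markers nevertheless lay lower in knockout morphine (6370 to 8160 CPM) than in most wild-type morphine libraries (8040 to 9370 CPM), and the summed serotonin markers lay at 145 to 389 CPM in knockout naive and 252 to 899 CPM in wild-type naive libraries. The cerebellar granule cell markers were low but apart in morphine libraries, with sums of 5.36 to 6.71 CPM for knockout and 4.15 to 4.81 CPM for wild type, and both tested ones had an unadjusted p under 0.05. The part of these cell types in the members' differences was not tested beyond the covariate. With the serotonin marker score as a covariate 11 members passed in the average, against 1.52% of all genes.

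With morphine, Mboat2, Rrm2 and Bcap29 rose and Sntg2 fell in wild-type libraries. Against naive wild-type libraries, 4 of 58 members passed, or 6.90%, 3 higher and 1 lower, with 4.41% of all genes passing, 2.34% higher and 2.07% lower. The groups did not overlap in 8 members, where 11.0% of all genes were apart. Mboat2, an acyltransferase that remodels membrane phospholipids, rose from 47.5, 44.5, 46.1 and 49.5 CPM in wild-type naive to 59.1, 59.9, 57.8 and 58.9 CPM in wild-type morphine libraries. All 4 morphine libraries lay above all naive ones, a change of 0.33 ± 0.04 (edgeR adjusted p = 5.99e-05) that passed under every setting tried. In libraries labelled knockout Mboat2 went from 47.0 to 49.5 CPM in naive to 49.5 to 54.5 CPM in morphine libraries, with 0.09 ± 0.04 (edgeR adjusted p = 0.135).

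Rrm2, the small subunit of ribonucleotide reductase, which makes DNA precursors in dividing cells, was low at 0.826, 1.26, 1.28 and 1.11 CPM in wild-type naive libraries. It rose to 1.91, 2.10, 1.73 and 1.99 CPM in wild-type morphine libraries, again without overlap, by 0.75 ± 0.17 (edgeR adjusted p = 0.0171; 0.0568 on dropping wild-type morphine 2). In libraries labelled knockout it was 1.52 to 2.13 CPM in naive and 1.31 to 2.18 CPM in morphine libraries, with -0.02 ± 0.17. Bcap29, a protein of the endoplasmic reticulum membrane, rose from 45.2 to 51.4 CPM to 52.0 to 57.5 CPM, by 0.18 ± 0.04 (edgeR adjusted p = 0.0271). Dropping wild-type morphine 1 or 2, or naive 2 or 3 of the same genotype, ended its call. Sntg2, a syntrophin of the dystrophin complex, fell by 0.39 ± 0.11 on the log2 scale (edgeR adjusted p = 0.0444), from 2.90 to 3.53 CPM to 2.27 to 2.66 CPM, and lost its call in 19 of 26 settings. Among those were all that dropped 1 library, except wild-type naive 1, wild-type naive 4 and knockout morphine 3. The count of 4 fell to 1 when wild-type morphine 2 was dropped, and to 2 when wild-type morphine 1 or naive 2 or 3 was dropped.

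In libraries labelled knockout 4 of 58 members passed as well, 3 higher and 1 lower, where 11.5% of all genes did, 5.67% higher and 5.83% lower. The groups did not overlap in 4 members, against 17.1% of all genes. Prkar2b, a regulatory subunit of the cAMP-dependent protein kinase, rose from 59.6, 58.9, 60.7 and 60.6 CPM in knockout naive to 70.2, 75.3, 63.6 and 71.1 CPM in knockout morphine libraries. The groups did not overlap, and the change was 0.23 ± 0.05 (edgeR adjusted p = 0.00545). Bcap29 rose by 0.18 ± 0.04 (edgeR adjusted p = 0.0142), from 45.9 to 49.4 CPM to 52.5 to 54.8 CPM, the same size as in wild type. Eipr1, which takes part in endosomal recycling, rose by 0.15 ± 0.04 (edgeR adjusted p = 0.0305). Adam17 fell by 0.16 ± 0.05 on the log2 scale (edgeR adjusted p = 0.031), from 25.4 to 28.5 CPM to 24.0 to 26 CPM, and the groups overlapped at knockout morphine 3. Dropping 1, 2 or 4 of either knockout group ended its call, and dropping knockout naive 1, 2 or 3, or morphine 1 or 2, ended that of Eipr1. The count fell to 2 when knockout naive 1 or 2, or morphine 2, was dropped.

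Some markers of other cell types changed with morphine in both genotypes. The endothelial marker Cldn5 fell by 1.09 ± 0.16 on the log2 scale in wild-type libraries (edgeR adjusted p = 0.00121) and by 0.79 ± 0.16 in libraries labelled knockout (edgeR adjusted p = 0.0069), as 1 of 3 markers of its list. The microglial marker Cx3cr1 fell by 0.61 ± 0.07 and 0.49 ± 0.07 (edgeR adjusted p = 3.1e-05 and 0.000309), as 1 of 4. The other microglial markers did not pass, and their directions were mixed. Tmem119 had 0.14 in wild-type and 0.19 in knockout libraries, P2ry12 -0.36 and -0.16, and Csf1r -0.11 and -0.09. Summed endothelial markers went from 70.7 to 96.2 CPM to 58.5 to 66.0 CPM in wild-type libraries, and from 80.3 to 95.3 CPM to 56.6 to 78.6 CPM in libraries labelled knockout. Summed microglial markers went from 124 to 155 CPM to 113 to 122 CPM and from 132 to 143 CPM to 115 to 136 CPM. In the knockout comparison, all 10 serotonin neuron markers passed higher, with summed levels of 145 to 389 CPM in knockout naive and 576 to 1780 CPM in knockout morphine libraries, and 4 of 5 oligodendrocyte markers passed lower, with sums of 9240 to 10600 CPM and 6370 to 8160 CPM. With the serotonin score as a covariate edgeR passed 0 members in this comparison and 1.68% of all genes. At an unadjusted p under 0.05 there were 7 members, and the values of Prkar2b and Bcap29 were 0.13 and 0.09. The score itself differed between these groups, with means of -1.0 in knockout naive and 0.77 in knockout morphine libraries. With the covariate the members' median SE rose from 0.086 to 0.135. The smaller number of calls is therefore not read as a result about these cells. In wild-type libraries 0 of 10 serotonin markers passed by edgeR, with sums of 252 to 899 CPM in naive and 716 to 934 CPM in morphine libraries, and 2 of the 4 members, Mboat2 and Rrm2, passed with that covariate. The part of these cell types in the members' changes was not tested further.

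**Figure D5:**
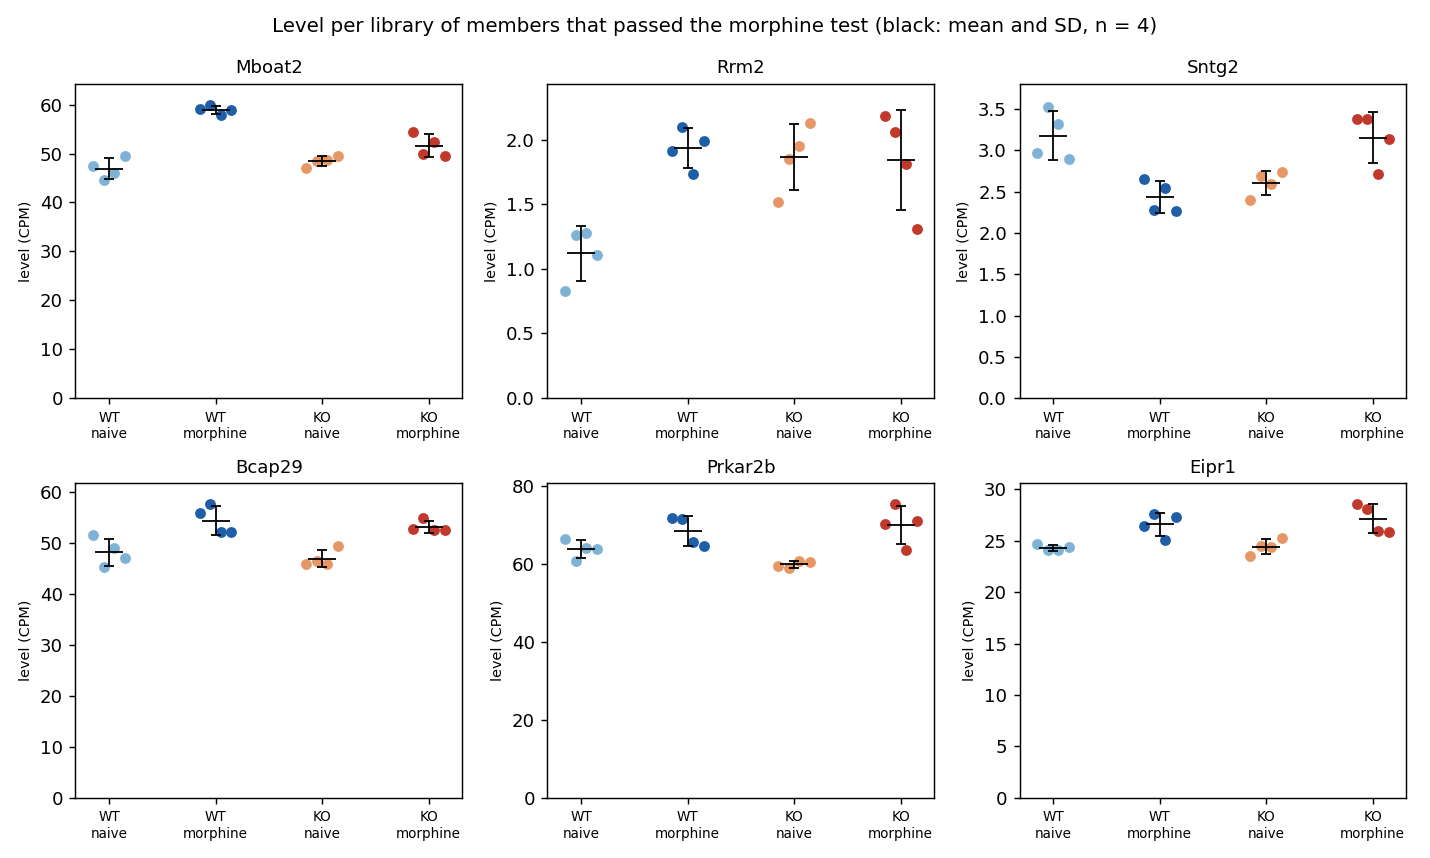
Level in CPM of 6 members that passed for morphine against naive in 1 or both genotypes, in every library, with the mean and SD of 4 libraries in black and a vertical axis that starts at 0. Mboat2 lies at 57.8 to 59.9 CPM in wild-type morphine libraries, above the 44.5 to 54.5 CPM of the other groups, and Bcap29 lies higher after morphine in both genotypes.

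The difference between the genotypes' responses to morphine passed edgeR's threshold in 0 of 58 members and in 0% of all genes. At an unadjusted p under 0.05 there were 7 members, or 12.1%, the same share as over all genes. DESeq2's Wald test passed 1 member, Mboat2, or 1.72%, and 0.591% of all genes, and limma-voom passed 0 of each. The difference was -0.24 ± 0.05 for Mboat2 (edgeR adjusted p = 0.158; 0.0258 to 0.362 over the alternatives, the lowest by DESeq2). It was 0.67 ± 0.15 for Sntg2 (edgeR adjusted p = 0.156; 0.0513 to 0.362) and -0.78 ± 0.24 for Rrm2 (edgeR adjusted p = 0.270; 0.169 to 0.474). By edgeR, the responses of these members were therefore not shown to differ between the genotypes. This comparison equals the genotype difference in morphine libraries minus that in naive libraries, and both were in view when the stretch was chosen. Its p-values are therefore a description.

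Adi1 and Acp1 were not called for morphine in either genotype. Adi1 had a log2 fold change of 0.21 ± 0.14 in wild-type and 0.13 ± 0.15 in knockout libraries (edgeR adjusted p = 0.423 and 0.643), and Acp1 by -0.02 ± 0.09 and -0.09 ± 0.09 (edgeR adjusted p = 0.952 and 0.584). The 95% interval of the Adi1 change in wild-type libraries was -0.09 to 0.52 and does not exclude a change of the size seen in Mboat2. Over all members the median size of the morphine change, regardless of sign, was 0.074 in wild-type and 0.086 in knockout libraries, against 0.088 and 0.10 over all genes.

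Grouped by role, with some members in more than 1 group, the averaged genotype difference passed in 2 of 10 metabolic members, Adi1 and Iah1, both lower. It passed in 3 of 12 signalling members, with Acp1 and Kidins220 higher and Adam17 lower, and in 2 of 8 members listed as transcription regulators, Id2 and the pseudogene Zfp125, both higher. Of 7 members listed under RNA processing and translation 1 passed lower, again Adi1, which encodes a metabolic enzyme and is counted above. In the matrix list 1 of 4 members passed lower, Adam17, and in the membrane traffic list 1 of 7 passed higher, Kidins220. For comparison, 12 of 58 members passed, or 20.7%, and 1.53% of all genes. The stretch was chosen on this difference, so nothing is read from the role counts. The other genes of highest level per length in the stretch were Ywhaq, a phosphoserine-binding adaptor, at 78.1 CPM per kb of exon in wild-type naive libraries, and Dld, a dehydrogenase subunit of mitochondria, at 37.1, against 58.9 for Kidins220 and 32 for Adi1. Ywhaq and Dld had averaged differences of 0.07 ± 0.03 and -0.01 ± 0.03 and did not pass.

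Of 17 tested genes of methionine salvage and polyamine metabolism, the pathway of Adi1, 3 passed in the average genotype difference, or 17.6% against 1.53% of all genes, with Odc1 and Enoph1 (0.13 ± 0.03) higher and Adi1 lower. Odc1 lies on chromosome 12 next to the stretch, and Adi1 is a member, so the choice of the stretch bears on this count. Enoph1 encodes the salvage enzyme that makes the substrate of Adi1, and its call was lost on dropping knockout naive 1 or 2, knockout morphine 4, or wild-type morphine 1 or 3. With morphine, 2 of the 17 rose in wild-type libraries (11.8%, against 4.41% of all genes), Azin1 (0.34 ± 0.05, edgeR adjusted p = 0.000235), the antizyme inhibitor that protects ornithine decarboxylase, and Mat2a (0.27 ± 0.04, edgeR adjusted p = 0.000181), which makes S-adenosylmethionine. In libraries labelled knockout 2 of the 17 passed (11.8%, against 11.5% of all genes). Azin1 rose by 0.22 ± 0.05 (edgeR adjusted p = 0.00571) and Amd1, which makes the aminopropyl donor of polyamines, fell by 0.18 ± 0.05 on the log2 scale (edgeR adjusted p = 0.0368). With the serotonin score as a covariate edgeR passed 0 of the 17 in this comparison (2 at an unadjusted p under 0.05). Their median SE rose from 0.046 to 0.069 with that covariate. The call of Amd1 was also lost on dropping 1, 2 or 4 of knockout naive or 2 or 4 of knockout morphine. Rsad2 and Cmpk2, a neighbouring pair of members that interferon induces, had averaged differences of 0.06 ± 0.17 and 0.04 ± 0.03, and edgeR passed 0 of 16 interferon-induced genes in the average (0 at an unadjusted p under 0.05, 0 by DESeq2 and 0 by limma-voom).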

How the data were processed

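The authors deposited whole-number read counts per gene, 1 file per library, per the labels; the submitters' processing notes name HTSeq, limma and mm10. Aligner and annotation release: not given in the sources used here. Per the labels' protocols, TRIzol was used for extraction and a TruSeq kit, which does not mark the strand, for the libraries. HTSeq's tallies outside genes (38.2 to 40.6% of the total) stayed out of library sizes and tests. Positions came from GENCODE M21 on GRCm38 (37607 of 38924 identifiers matched). Totals of 19.1 to 55.0 M counts limit the precision of low genes.

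Counts of 18111 genes kept by filterByExpr (minimum count 10) were scaled with TMM. The quasi-likelihood test of edgeR (4.0.16, on R 4.3.3) was run on 1 model of the 16 libraries, with the 4 groups as coefficients, Benjamini-Hochberg adjusted over all genes, threshold 0.05, in 6 comparisons: morphine against naive in each genotype, knockout against wild type in each treatment and averaged, and the interaction. Values are log2 fold changes ± SE. P-values measure the spread between libraries, which the labels call biological replicates; no pair within a group agreed within sampling noise (chi-square 3.72 or more per gene). On simulated counts for wild-type morphine against naive over 18111 genes, the test recovered 52% of the genes changed 1.25-fold, 84% at 1.5-fold and 94% at 2-fold, and 11 of 176 calls were false. The changed genes were drawn from those with a mean above 1 CPM, so these rates do not cover members below it.

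The members, gene lists and tests were chosen with earlier results of these data known. Named genes were Adi1, Acp1, members called in the averaged genotype difference, in the morphine comparisons or with the smallest interaction p, their neighbours, genes at the edges of the stretch and of the count minimum, and members of role lists; Rgs20, the targeted gene, was given although its counts do not separate the labels. Alternatives were DESeq2's size factors and Wald test (1.42.0), limma-voom (3.58.1), no filter, at least 1 CPM in 8 libraries, only the groups compared, a replicate block, the serotonin score as covariate, and leaving out libraries.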

Additional observations from a re-analysis of the deposited data

Results flagged for a closer look

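In 84 groups of 4 libraries, from 21 named members, 5 held a library set apart from the others of its group by Dixon's test at the 95% level, where chance gives about 1 in 20. In knockout morphine libraries, Adi1 was 29.3 CPM in library 2 against 41.6 to 44 CPM in the others. Adam17 was 26 CPM in knockout morphine 3, a library with high meningeal markers, against 24.0 to 24.1 CPM. Iah1 was 6.91 CPM in wild-type morphine 1 against 7.86 to 7.93 CPM. Bcap29 was 49.4 CPM in knockout naive 4 against 45.9 to 46.3 CPM, and 54.8 CPM in knockout morphine 2 against 52.5 to 52.6 CPM.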

How the results depend on the processing

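Members called numbered 4 for morphine in wild type, 4 for morphine in knockout, 6 for genotype in naive, 5 in morphine libraries, 12 in their average and 0 in the interaction. With only the groups compared, they were 2 in both morphine comparisons and 2 for genotype in morphine libraries. With the serotonin score as covariate they were 2 in wild type and 0 in knockout. DESeq2's Wald test gave 10 for genotype in naive libraries and 1 in the interaction. For morphine in wild type the count was 2 on leaving out both libraries with high meningeal markers, and 2 on leaving out knockout naive 1 and wild-type morphine 1 (an alternative chosen after seeing the data). Leaving out 1 library at a time gave 1 to 4, 2 to 4, 3 to 7, 2 to 6, 8 to 12 and 0 to 0. Equal replicate numbers do not pair the libraries: of 24 same-numbered pairs, 3 correlated above 0.1 (-0.28 to 0.13), and 2 of 16 libraries correlated best with their own number. With the replicate block the counts were 2 for morphine in wild type, 3 for genotype in naive and 3 in morphine libraries. No called result changed sign. The cause of these changes was not tested. Members under about 1 CPM have few counts, and undetected differences there do not show equal levels.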
